A study of Mus musculus with 9 samples.

Results

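The genes described here are 10 mouse genes of lipid and lysosome handling in foam cells, the lipid-laden macrophages of atherosclerotic plaques: Lipa, Lamp1, Lamp2, Npc1, Npc2, Gpnmb, Plin2, Soat1, Trem2 and Fabp5. All probe sets that the platform annotation assigned to one of these symbols alone were taken. This gave 20 probe sets for 9 of the 10 genes, out of 45037 probe sets that were not controls and 18193 genes with a probe set of their own. Lamp2 and Npc2 had 4 probe sets each, Lipa had 3, Gpnmb, Trem2 and Fabp5 had 2 each, and Lamp1, Npc1 and Plin2 had 1 each. Soat1, the enzyme that esterifies cholesterol for storage in droplets, was not analysed here.

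The 9 arrays measured aortic RNA of female APOE-/- mice on a C57BL/6 background. The labels give an age of 8 weeks, which cannot be the age at death, given the 30 weeks of diet. All groups lacked Apoe and had eaten a diet with 0.2% cholesterol and 10% coconut oil for 30 weeks to induce atherosclerosis. They then received 1 tail vein injection of PBS, of the empty helper-dependent adenovirus HDAd-0, or of HDAd-gE3, the same type of vector expressing human apolipoprotein E3, and were killed 10 days later. Each array held RNA from 3 pooled aortas, dissected from the sinus to the arch, and there were 3 arrays in each of the 3 groups. The labels do not name the promoter that drives the transgene, and pooling hides the spread between single mice. The p-values below therefore rest on the spread between pools, not between mice. In the model used (limma), the spread of each probe set is also drawn toward a value shared by all probe sets. The arrays are named by group and by the replicate number in the labels.

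Macrophages in a plaque take up lipoproteins and deliver them to the lysosome, an acidic organelle bounded by a membrane rich in the LAMP proteins. There, lysosomal acid lipase (Lipa) frees cholesterol from its esters, and NPC2 and NPC1 pass the cholesterol on through the membrane. Cholesterol and fatty acids that reach the cytosol are re-esterified and stored in droplets coated by perilipin 2 (Plin2), fatty acids are carried by binding proteins such as FABP5, and lipid-loaded macrophages carry TREM2 and GPNMB on their membranes.

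The deposited values are log2 signals, which ran from 1.98 to 14.7 with array medians between 6.67 and 6.77. The lowest correlation between any 2 arrays was 0.991. A total of 18 of the 20 probe sets had a mean of at least 6, and the remaining pair, 1 for Npc2 and 1 for Trem2, had means of 3.91 and 5.51. The tissue label was checked against cell type markers: all 20 macrophage, 11 smooth muscle and 11 endothelial markers measured had means above 6. Cardiac muscle markers were also bright, with a list mean between 11.42 and 13.02 on single arrays. The array HDAd-0 replicate 4 stood apart in the control probe sets for Actb and Gapdh, where its 3' signal exceeded its 5' signal by 1.08, against 0.673 to 0.957 on the other 8 arrays. The arrays' running numbers in the labels do not interleave between groups, so any processing order they reflect cannot be told apart from group.

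In HDAd-gE3 against HDAd-0, the comparison of the transgene with its empty vector, all 20 probe sets had a lower mean with the transgene. The differences were small, from -0.23 to -0.02 with a median of -0.11 on the log2 scale, against a median of -0.02 over all probe sets. With each array centred on its median these medians were -0.18 and -0.08. No member passed the test (limma, adjusted p under 0.05). An unadjusted p under 0.05 with a lower mean was found for 6.76% of all probe sets. It was found for 69 of the 2178 with a mean of at least 12, and for 1 of the 20 members. That last count depended on the setting: it was 9 of 20 with arrays centred on their medians, where 7881 of 45037 probe sets had such a p in either direction, and 9 of 20 with an intensity trend in the spread, where 5902 did. Over all 45037 probe sets 0 were called (0%), 5781 had an unadjusted p under 0.05 (12.8%), and 54.6% had a lower mean. In 9 of the 20 probe sets every HDAd-gE3 array lay below every HDAd-0 array, which held for 9.56% of all probe sets and for 14.6% of the 2178 with a mean of at least 12. The probe sets are not independent, since several share a gene. The genes are not independent either, since all were read on the same arrays. Counting the brightest probe set of each gene, 9 of 9 genes had a lower mean, as did 61.7% of all 18193 genes, and 5 did not overlap, where 12.0% of all genes had lower groups that did not overlap. Without HDAd-0 replicate 4, 17 of 20 probe sets had a lower mean.

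All 20 macrophage markers also had a lower mean with the transgene than with the empty vector, with a median of -0.17, and 14 had groups that did not overlap, though none passed the test. The mean log2 signal of the macrophage list was 11.49 to 11.55 on the HDAd-gE3 arrays, 11.66 to 11.73 on the HDAd-0 arrays and 11.54 to 11.58 on the PBS arrays. The smooth muscle list ran the other way, at 12.87 to 12.89, 12.71 to 12.77 and 12.82 to 12.84 in the same order, and the endothelial list was at 10.29 to 10.45, 10.52 to 10.73 and 10.15 to 10.25. Markers of other tissues and of neutrophils differed by more. In HDAd-gE3 against HDAd-0, 10 of 11 skeletal muscle markers (median -1.02) and 9 of 9 liver markers (-0.86) had lower means, while 11 of 11 cardiac muscle markers (0.61) and 9 of 10 neutrophil markers (0.77) had higher means. Of the remaining lists, 6 of 8 adipocyte, 7 of 10 T and NK cell and 4 of 6 B cell markers had lower means, with medians from -0.07 to -0.005. The 3' minus 5' control difference averaged 0.735 ± 0.069 (SD, n = 3) in HDAd-gE3, 0.933 ± 0.16 in HDAd-0 and 0.866 ± 0.071 in PBS. With that difference as a covariate, 18 of 20 member probe sets were lower. The part of the markers and of RNA quality in the members' differences was not tested further. In RNA of whole aortas, fewer cells of a type and less RNA per cell cannot be told apart.

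In HDAd-gE3 against PBS, 18 of the 20 probe sets had a lower mean with the transgene, with a median of -0.07 against -0.005 over all probe sets. The 2 higher means were those of the brightest probe sets of Trem2 and Lamp2. Groups did not overlap in 10 of 20, all lower, against 10.3% of all probe sets and 15.1% of the 2178 with a mean of at least 12. An unadjusted p under 0.05 with a lower mean was found for 5 members, against 5.47% of all probe sets. It was found for 65 of the 2178 with a mean of at least 12. Of the members, 0 of 20 passed the test, against 1 of 45037 (0.00222%). In either direction, 4958 of all probe sets (11.0%) had an unadjusted p under 0.05. Beside these, 16 of 20 macrophage markers had a lower mean than in PBS, with a median of -0.07. So did 8 of 11 skeletal muscle (-0.20), 7 of 11 cardiac muscle (-0.16) and 6 of 10 T and NK cell markers (-0.01). Higher means were found for 9 of 10 neutrophil (median 0.79), 7 of 9 liver (0.36) and 4 of 6 B cell markers (0.27). They were also found for 11 of 11 endothelial (0.15), 7 of 8 adipocyte (0.08) and 9 of 11 smooth muscle markers (0.07). The part of these markers in the members' values was not tested. In HDAd-0 against PBS the members were split, with 9 lower and 11 higher means and a median of 0.02. Groups did not overlap in 4 with higher means, against 9.43% of all probe sets, and in 1 with a lower mean, against 7.46%. Of the 2178 with a mean of at least 12, 366 were higher and 137 lower without overlap. None of the 20 passed the test, against 4 of 45037 (0.00888%), and 1 had an unadjusted p under 0.05, against 12.3% of all probe sets. Centring each array on its median changed the members' split to 4 lower and 16 higher. Of the markers, 11 of 11 cardiac muscle (median -0.82) and 8 of 11 smooth muscle (-0.02) were lower in HDAd-0. Higher means were found for 9 of 9 liver (1.29), 9 of 11 skeletal muscle (0.99), 11 of 11 endothelial (0.41) and 5 of 6 B cell markers (0.30). Macrophage, adipocyte and T and NK cell medians were 0.06, and the neutrophil median was -0.03. Their part in the members' values was not tested.

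A single F test over the 3 groups, which does not count a shared control more than once, called 0 of the 20 (limma, adjusted p under 0.05), against 4 of 45037. It gave an unadjusted p under 0.05 to 2 of the 20, a probe set of Gpnmb and that of Plin2, against 13.7% of all. The lowest adjusted p among the members was 0.25. With 3 arrays a group, no exact permutation p of a pair of groups can be lower than 0.1.

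**Figure D1:**
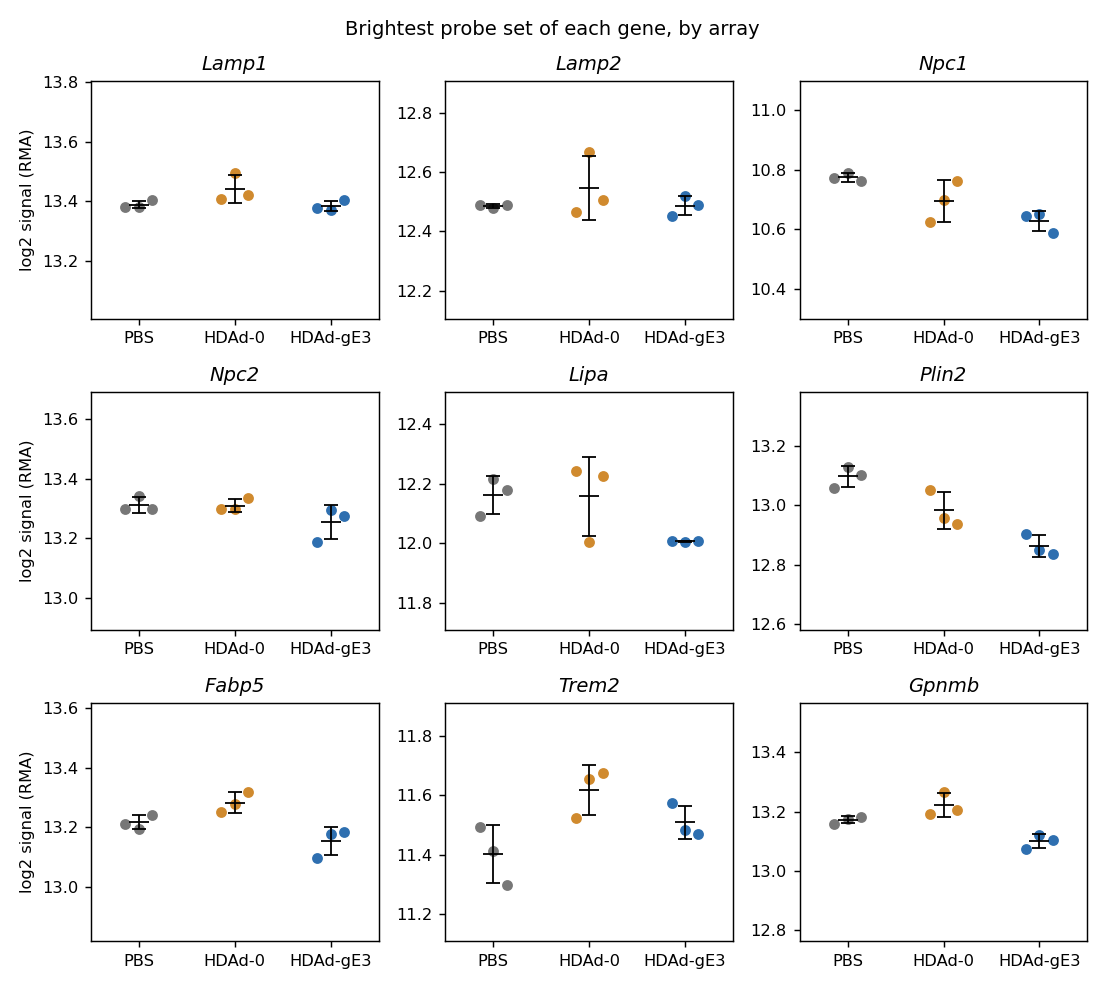
Log2 signal of the brightest probe set of each of the 9 genes on each array, with 1 point per array, the group mean as the wide bar and the SD as the error bars. Each axis spans the same log2 range around the gene's mean; Plin2 steps down from PBS through HDAd-0 to HDAd-gE3 without overlap, whereas Lamp1 lies between 13.37 and 13.49 on all 9 arrays.

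Lamp1 and Lamp2 encode the heavily glycosylated proteins that line the lysosomal membrane. The Lamp1 probe set (1415880_a_at) read 13.38, 13.38 and 13.40 on the PBS arrays, 13.41, 13.49 and 13.42 on HDAd-0, and 13.38, 13.37 and 13.40 on HDAd-gE3. The 3 HDAd-0 arrays were the 3 highest, and the other groups overlapped. The difference between HDAd-gE3 and PBS was -0.005 ± 0.058 (SE), with a 95% interval from -0.14 to 0.13. The group SDs were 0.013 in PBS, 0.047 in HDAd-0 and 0.017 in HDAd-gE3. All lie below this SE, which draws on the spread shared by all probe sets. Against HDAd-0 the difference was -0.06 (interval -0.19 to 0.08, limma adjusted p = 0.693).

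Lamp2 is the partner of Lamp1 in the membrane and also serves chaperone-mediated autophagy. Its brightest probe set (1434503_s_at) read 12.49, 12.48 and 12.49 in PBS, 12.47, 12.67 and 12.51 in HDAd-0, and 12.45, 12.52 and 12.49 in HDAd-gE3. HDAd-0 replicate 4 was the highest array and the groups overlapped. A second probe set (1416344_at) read 12.33, 12.37 and 12.41 in PBS, 12.33, 12.37 and 12.28 in HDAd-0, and 12.22, 12.25 and 12.20 in HDAd-gE3, where the 3 transgene arrays were the lowest of the 9. Its difference from PBS was -0.15 ± 0.060 (interval -0.28 to -0.01, limma adjusted p = 0.428). Over the 4 Lamp2 probe sets the difference between HDAd-gE3 and PBS ran from -0.15 to 0.001, so that the probe sets of this gene gave different sizes. Whether they differ from each other was not tested.

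The promoter of Lamp1 is shown because lysosomal genes are known for E-box sites, CACGTG, which the MiT/TFE transcription factors TFEB, TFE3 and MITF bind among other factors, and Lamp1 held most of them here. The window runs from 250 bases before to 50 bases after the RefSeq start of transcription on the plus strand, chr8:13158911-13159210 of GRCm38.p6, and capitals mark CACGTG.
Lamp1: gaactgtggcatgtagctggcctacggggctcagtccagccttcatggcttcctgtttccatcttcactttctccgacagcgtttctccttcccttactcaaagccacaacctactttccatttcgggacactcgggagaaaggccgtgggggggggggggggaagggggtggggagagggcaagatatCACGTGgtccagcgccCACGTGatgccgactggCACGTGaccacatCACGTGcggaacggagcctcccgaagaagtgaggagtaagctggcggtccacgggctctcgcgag
The CACGTG sites began at -61, -45, -28 and -15 from the start. Of 32851 RefSeq promoters of this length, 7.15% held at least 1 CACGTG and 8 held at least 4 (0.0244%). RefSeq promoters were found for 8 of the 10 genes, among them Soat1, and 2 of the 8, Lamp1 and Plin2, held CACGTG. These are matches of letters, not shown to be bound.

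Lipa encodes lysosomal acid lipase. Its brightest probe set (1450872_s_at) read 12.09, 12.22 and 12.18 in PBS, 12.24, 12.00 and 12.23 in HDAd-0, and 12.01, 12.00 and 12.01 in HDAd-gE3. The HDAd-gE3 arrays lay within 0.01 of each other and below all PBS arrays, while HDAd-0 replicate 4 lay beside them. The difference was -0.15 ± 0.080 against HDAd-0 (interval -0.33 to 0.03, limma adjusted p = 0.451) and -0.16 ± 0.080 against PBS (interval -0.34 to 0.03, adjusted p = 0.518).

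All 3 Lipa probe sets were lowest in the HDAd-0 group on replicate 4. In the dimmest (1423141_at) that array read 10.34, against 11.08 and 11.04 on the other HDAd-0 arrays, 10.80, 10.90 and 10.80 in PBS, and 10.53, 10.70 and 10.74 in HDAd-gE3. This 1 array gave the HDAd-0 group an SD of 0.41. Without it, HDAd-gE3 minus HDAd-0 for this probe set was -0.40 (limma adjusted p = 0.0699), against -0.16 with it (adjusted p = 0.712). For the other 2 Lipa probe sets it was -0.23 and -0.19 without that array, again short of the threshold. The call did not change, but the size of the Lipa difference rested on that array.

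Npc1 encodes the membrane protein that moves cholesterol out of the lysosome. Its probe set (1423086_at) read 10.77, 10.79 and 10.76 in PBS, 10.62, 10.70 and 10.76 in HDAd-0, and 10.64, 10.65 and 10.59 in HDAd-gE3. The PBS arrays were all above the HDAd-gE3 arrays, and HDAd-0 spanned the gap. The difference between HDAd-gE3 and PBS was -0.15 ± 0.063 (interval -0.29 to -0.003, limma adjusted p = 0.445).

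Npc2 encodes the soluble lysosomal protein that hands cholesterol to NPC1. The brightest of its probe sets (1448513_a_at) read 13.30, 13.34 and 13.30 in PBS, 13.30, 13.30 and 13.33 in HDAd-0, and 13.19, 13.30 and 13.28 in HDAd-gE3. Its difference was -0.06 in both comparisons of HDAd-gE3. A dimmer probe set (1455768_at) read 11.33, 11.41 and 11.30 in PBS, 11.45, 11.30 and 11.31 in HDAd-0, and 11.09, 11.24 and 11.19 in HDAd-gE3. The 3 transgene arrays were the lowest of the 9, with differences of -0.18 ± 0.075 from HDAd-0 (limma adjusted p = 0.372) and -0.17 ± 0.075 from PBS (adjusted p = 0.448). Differences between HDAd-0 and PBS over the 4 Npc2 probe sets ran from -0.002 to 0.03.

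Plin2 coats the cytosolic lipid droplet and is widely used as a measure of droplet content. Its probe set (1448318_at) read 13.06, 13.13 and 13.10 in PBS, 13.05, 12.96 and 12.94 in HDAd-0, and 12.90, 12.85 and 12.84 in HDAd-gE3. The groups did not overlap in any of the 3 comparisons, with PBS highest and HDAd-gE3 lowest. The means were 13.10 ± 0.035, 12.98 ± 0.061 and 12.86 ± 0.036 (SD, n = 3). HDAd-gE3 differed from PBS by -0.23 ± 0.063 (SE; interval -0.38 to -0.09), which is 1.18-fold, with a limma adjusted p of 0.262. The differences were -0.12 between HDAd-gE3 and HDAd-0 (adjusted p = 0.45) and -0.11 between HDAd-0 and PBS (adjusted p = 0.495). The group order is therefore a description that did not pass the test.

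The Plin2 promoter is shown as the other member with a CACGTG site, which began at -4. It lies on the minus strand at chr4:86670010-86670309 of GRCm38.p6, from RefSeq, and capitals mark CACGTG.
Plin2: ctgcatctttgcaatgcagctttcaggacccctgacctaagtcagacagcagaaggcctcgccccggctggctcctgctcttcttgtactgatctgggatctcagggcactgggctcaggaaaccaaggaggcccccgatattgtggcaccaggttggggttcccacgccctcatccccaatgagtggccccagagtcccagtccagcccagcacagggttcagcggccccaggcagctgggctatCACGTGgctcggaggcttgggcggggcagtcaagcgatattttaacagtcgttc
The promoter was also searched on both strands for the direct repeat element that PPAR binds with its partner RXR, known regulators of Plin2. No match was found in this window, and the repeat occurred in 13 of the 32851 promoters (0.0396%).

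Fabp5 encodes a cytosolic fatty acid carrier of macrophages and of several other cell types. Its first probe set (1416021_a_at) read 13.21, 13.20 and 13.24 in PBS, 13.25, 13.28 and 13.32 in HDAd-0, and 13.10, 13.18 and 13.18 in HDAd-gE3. The groups did not overlap in any comparison, with HDAd-0 highest and HDAd-gE3 lowest. The differences were -0.13 ± 0.060 between HDAd-gE3 and HDAd-0 (interval -0.27 to 0.006, limma adjusted p = 0.403), -0.06 between HDAd-gE3 and PBS, and 0.07 between HDAd-0 and PBS. The second probe set (1416022_at) read 13.09, 13.14 and 13.09 in PBS, 13.09, 12.99 and 13.24 in HDAd-0, and 13.09, 13.09 and 13.03 in HDAd-gE3, and its groups overlapped. Here HDAd-gE3 minus HDAd-0 was -0.03 (interval -0.20 to 0.14), so the order seen in the first was not seen in the second.

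Trem2 encodes a lipid-sensing receptor of macrophages that signals through the adaptor TYROBP. Its brighter probe set (1421792_s_at) read 11.49, 11.41 and 11.30 in PBS, 11.52, 11.65 and 11.68 in HDAd-0, and 11.57, 11.48 and 11.47 in HDAd-gE3. All HDAd-0 arrays were above all PBS arrays, and HDAd-gE3 overlapped both. The difference between HDAd-0 and PBS was 0.22 ± 0.077 (interval 0.04 to 0.39), which is 1.16-fold, with a limma adjusted p of 0.327. It was the one member with an unadjusted p under 0.05 in that comparison, where 6.59% of all probe sets had one with a higher mean. Macrophage markers had higher means in HDAd-0 than in PBS for 18 of 20 genes, with a median of 0.06, and their part in the Trem2 value was not tested. The dimmer Trem2 probe set (1421226_at) averaged 5.51 over all arrays and differed by 0.03 between HDAd-0 and PBS.

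Gpnmb encodes a transmembrane glycoprotein that is abundant in lipid-loaded macrophages. Its bright probe set (1448303_at) read 13.16, 13.18 and 13.18 in PBS, 13.19, 13.27 and 13.21 in HDAd-0, and 13.07, 13.12 and 13.11 in HDAd-gE3. The transgene arrays were the 3 lowest and the HDAd-0 arrays the 3 highest. The differences were -0.12 ± 0.058 from HDAd-0 (interval -0.25 to 0.01, limma adjusted p = 0.413) and -0.07 ± 0.058 from PBS (interval -0.20 to 0.06, adjusted p = 0.687).

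The second Gpnmb probe set (1439345_at) read 9.81, 10.11 and 10.05 in PBS, 9.75, 9.69 and 9.96 in HDAd-0, and 9.49, 9.60 and 9.63 in HDAd-gE3. The transgene arrays were again the 3 lowest, and here HDAd-0 overlapped PBS. Its difference between HDAd-gE3 and PBS, -0.42 ± 0.10 (interval -0.65 to -0.18), was the largest among the 20 probe sets, 1.34-fold, with a limma adjusted p of 0.231. The difference from HDAd-0 was -0.23 ± 0.10 (adjusted p = 0.401). These probe sets gave -0.07 and -0.42 against PBS, and whether these differ was not tested. Bright probe sets vary little on these arrays: the median SD over the 9 arrays was 0.065 for the 2178 probe sets with a mean of at least 12, and 0.139 for all 25807 with a mean of at least 6.

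The promoters of Gpnmb and Trem2 are shown because they held the pattern TGANTCA, marked in capitals. They were the only 2 of the 8 promoters that held it, once each. The pattern is a loose form of the AP-1 motif that allows any base in the middle. Gpnmb lies on the plus strand at chr6:49036268-49036567 and Trem2 on the plus strand at chr17:48346151-48346450 of GRCm38.p6, from RefSeq.
Gpnmb: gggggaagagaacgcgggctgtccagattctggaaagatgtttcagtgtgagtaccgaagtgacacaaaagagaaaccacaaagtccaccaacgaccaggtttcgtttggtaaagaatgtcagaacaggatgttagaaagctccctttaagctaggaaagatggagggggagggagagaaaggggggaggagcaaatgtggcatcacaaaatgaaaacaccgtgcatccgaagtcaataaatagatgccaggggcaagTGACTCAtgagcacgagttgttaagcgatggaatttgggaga
Trem2: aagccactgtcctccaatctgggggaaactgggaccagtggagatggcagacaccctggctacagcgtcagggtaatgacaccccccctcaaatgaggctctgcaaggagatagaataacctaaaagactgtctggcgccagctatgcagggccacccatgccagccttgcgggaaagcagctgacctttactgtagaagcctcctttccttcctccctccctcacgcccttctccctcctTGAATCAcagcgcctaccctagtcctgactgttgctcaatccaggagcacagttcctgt
The match was TGACTCA at position 9 after the start for Gpnmb and TGAATCA at -9 for Trem2. The pattern TGANTCA reads alike on both strands and was present in 7.81% of the 32851 promoters. Neither match overlapped another motif searched, and both are matches of letters to this loose form, not shown to be bound. The search for CATGTG, the related E-box on both strands, found none in the 8 promoters, and 14.2% of all promoters held it.

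**Figure D2:**
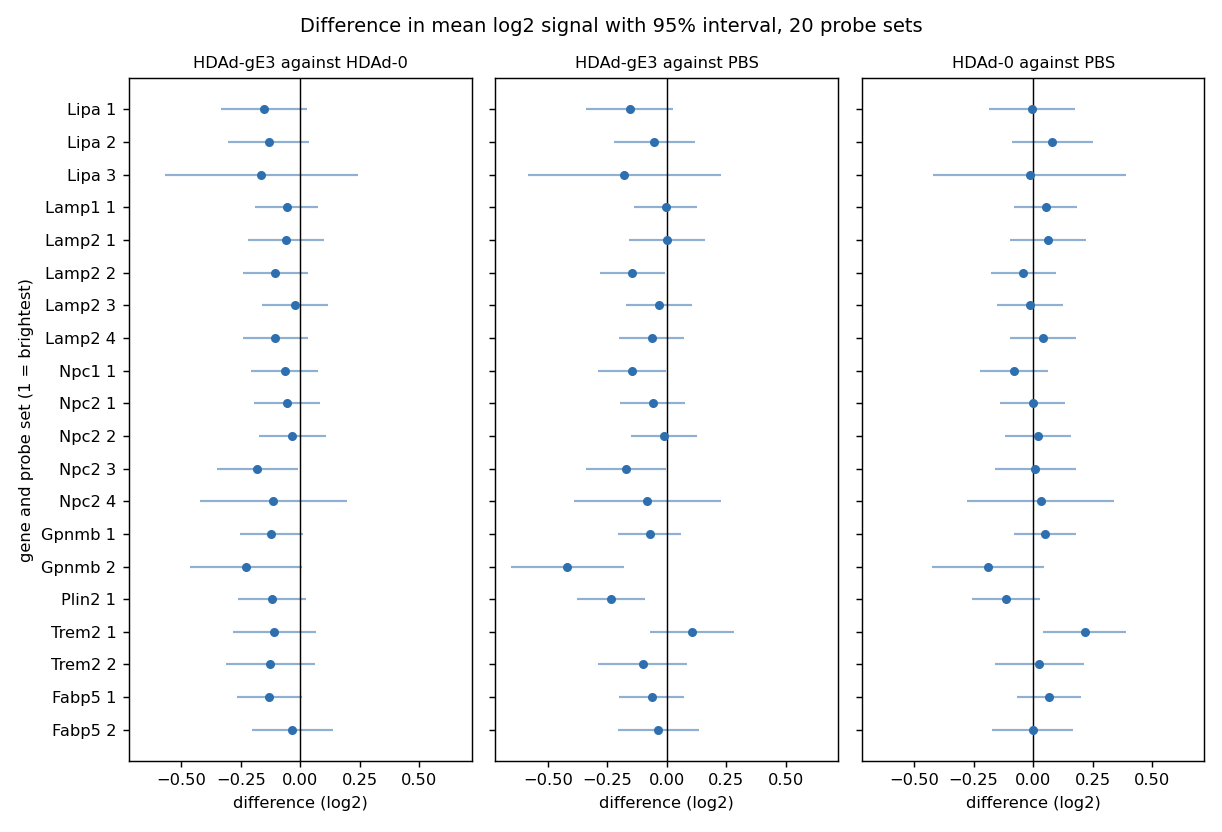
Difference in mean log2 signal with its 95% interval for all 20 probe sets in each comparison, numbered from the brightest of each gene. All 20 points lie below 0 in HDAd-gE3 against HDAd-0, and the second Gpnmb probe set and Plin2 lie farthest below 0 in HDAd-gE3 against PBS.

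**Figure D3:**
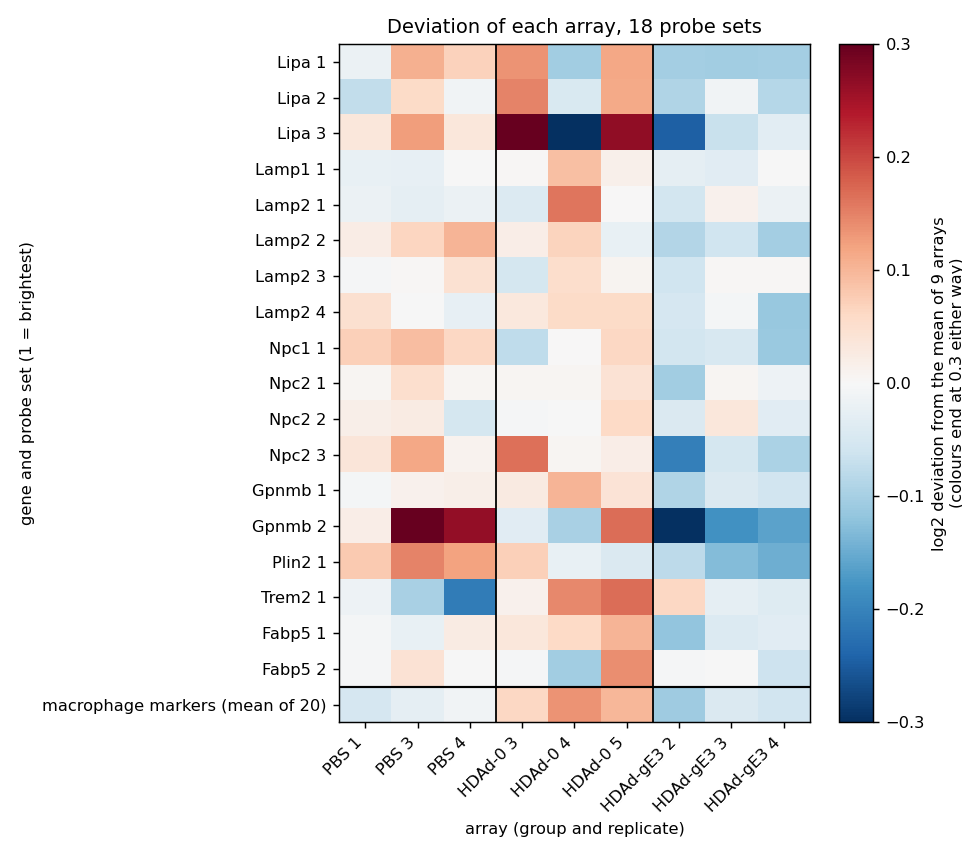
Log2 deviation of each array from the mean of the 9 arrays for the 18 probe sets with a mean of at least 6, and for the mean of 20 macrophage markers in the bottom row, with red higher and blue lower and colours ending at 0.3 either way. HDAd-0 replicate 4 is the lowest HDAd-0 array in the 3 Lipa rows and the highest in the macrophage marker row.

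The median SD over the 9 arrays of the 18 brighter member probe sets was 0.070, with a range from 0.038 to 0.23, against 0.139 for all probe sets with a mean of at least 6 and 0.065 for those with a mean of at least 12. The members' spread was thus near that of other bright probe sets. Genes with the most similar pattern were sought by the root mean square difference of deviations over the 9 arrays among 12833 genes. Those closest to Gpnmb were Fubp3 (0.020), Pld3 (0.023) and Hexa (0.023). Those closest to Plin2 were Cux1 (0.032), Pgd (0.038) and Rgl1 (0.038), and those closest to Trem2 were Plekhj1 (0.042), Sergef (0.045) and Glmp (0.047). For Lipa they were Ifi30 (0.033), Fcer1g (0.036) and Taf10 (0.036), and for Lamp1 they were Tjp1 (0.013), Msn (0.013) and Psap (0.015). For Lamp2 they were Hnrnpa2b1 (0.022), Twist1 (0.022) and Cers5 (0.023), and for Npc1 Dnajb9 (0.031), Larp4 (0.034) and Pitpna (0.036). For Npc2 they were Canx (0.015), Atp1b3 (0.017) and Itm2b (0.018), and for Fabp5 Tpm3 (0.019), Rab7b (0.020) and Rbm7 (0.023). The members' own root mean square deviations ran from 0.035 for Lamp1 to 0.11 for Trem2, so these distances are not comparable between members.

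Other genes of these pathways were taken from 9 lists, each represented by the gene's brightest probe set. Of 127 genes that are not members, 101 had a lower mean and 26 a higher one in HDAd-gE3 against HDAd-0, with a median of -0.07 against -0.04 over all genes, of which 61.7% had a lower mean. The counts of each list below are to be read against that share, and they include the members that a list holds. None of the 127 was called, the lowest adjusted p being 0.175 (limma). Of the 127, 21 had an unadjusted p under 0.05 with a lower mean, where 8.40% of all genes did. In HDAd-gE3 against PBS, 84 were lower and 43 higher, where 54.6% of all genes were lower, and 17 had an unadjusted p under 0.05 with a lower mean, against 6.54% of all genes. In HDAd-0 against PBS, 52 were lower and 75 higher, where 42.4% of all genes were lower. No gene was called in either comparison, with lowest adjusted p-values of 0.171 and 0.202.

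Among the 13 measured genes of the TREM2 receptor and its signalling, 12 had a lower mean in HDAd-gE3 than in HDAd-0. The median of the 13 was -0.19, and 7 had an unadjusted p under 0.05. Without Trem2 itself, 11 of 12 were lower. All 20 macrophage markers, Tyrobp among them, were also lower in that comparison. Their median was -0.17, 8 had an unadjusted p under 0.05, and their part in this list was not tested. Plcg2, a phospholipase downstream of the receptor, averaged 9.49 in HDAd-gE3, 9.94 in HDAd-0 and 9.77 in PBS, a difference of -0.45 ± 0.084 from HDAd-0 (adjusted p = 0.175). Inpp5d, a phosphatase that restrains this signalling, differed by -0.29 (adjusted p = 0.221). In HDAd-gE3 against PBS 11 of the 13 were lower, with a median of -0.08, and Vav1, a guanine nucleotide exchange factor, differed by -0.35 (adjusted p = 0.221). In HDAd-0 against PBS 10 of 13 were higher, and Spi1, the myeloid transcription factor PU.1, differed by 0.19 (adjusted p = 0.324).

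Of the 28 lysosomal hydrolases and related enzymes measured, 25 had a lower mean in HDAd-gE3 than in HDAd-0, with a median of -0.09. The sulfatase Galns differed by -0.28 (adjusted p = 0.239) and the phospholipase Pla2g15 by -0.22 (adjusted p = 0.345). In HDAd-gE3 against PBS 18 of 28 were lower, among them the galactosidases Gla (-0.27) and Galc (-0.20), and in HDAd-0 against PBS 21 of 28 were higher, with a median of 0.08. Among 16 subunits of the proton pump that acidifies the lysosome, 15 were lower in HDAd-gE3 than in HDAd-0 and 14 lower than in PBS, with medians of -0.09 and -0.08. Atp6v1c1 differed by -0.18 and -0.16 in these comparisons (limma adjusted p = 0.329 and 0.415). Atp6ap2, an accessory subunit, differed by -0.16 and -0.21 (adjusted p = 0.364 and 0.314).

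Of the 16 lysosomal membrane and sterol export genes, 14 were lower in HDAd-gE3 than in HDAd-0 and 9 lower than in PBS. Without the members among them, 10 and 6 of 12 were lower. Slc38a9, an amino acid transporter of the lysosome, differed by -0.24 from PBS in HDAd-gE3 (adjusted p = 0.332) and by -0.28 in HDAd-0 (adjusted p = 0.244). Of the 12 MiT/TFE factors and their regulators, 8 were lower than in HDAd-0 and 10 lower than in PBS. In HDAd-0 against PBS 10 of these 12 were lower, including Mitf at -0.16 (adjusted p = 0.327), the reverse of the median over all genes, which was 0.02.

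Among 12 lipid droplet genes, 7 had a lower mean in HDAd-gE3 than in HDAd-0, near the share of all genes, and 5 lower than in PBS. G0s2, an inhibitor of the droplet lipase ATGL, read 11.55, 11.61 and 11.44 in PBS, 11.18, 10.96 and 11.42 in HDAd-0, and 11.08, 10.73 and 10.93 in HDAd-gE3. It differed by -0.62 ± 0.13 between HDAd-gE3 and PBS (limma adjusted p = 0.171). In HDAd-0 it was -0.35 from PBS (adjusted p = 0.339). Its PBS arrays were above all others. Fat cells also express G0s2 at high levels, and the mean of 8 adipocyte markers was 11.25 to 11.55 in PBS, 11.26 to 11.63 in HDAd-0 and 11.38 to 11.47 in HDAd-gE3.

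Of 11 genes of cholesterol ester and triglyceride turnover, 7 were lower in HDAd-gE3 than in HDAd-0, with a median of -0.02, again near the share of all genes, and 5 were lower than in PBS, with a median of 0.001. Of 13 fatty acid binding and uptake genes, 9 and 8 were lower. Fabp1, the liver fatty acid binding protein, differed by 1.82 ± 0.59 between HDAd-0 and PBS (adjusted p = 0.292). In that comparison all 9 liver markers measured also had a higher mean, with a median of 1.29, and their part in the Fabp1 value was not tested. Of 23 measured genes listed for TREM2-high foamy macrophages of mouse lesions, 21 were lower in HDAd-gE3 than in HDAd-0 and 17 lower than in PBS. Without the members among them, 15 and 12 of 17 were lower. Itgax, an integrin subunit of foamy macrophages and dendritic cells, differed by -0.29 and -0.32 (adjusted p = 0.223 and 0.184).

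**Figure D4:**
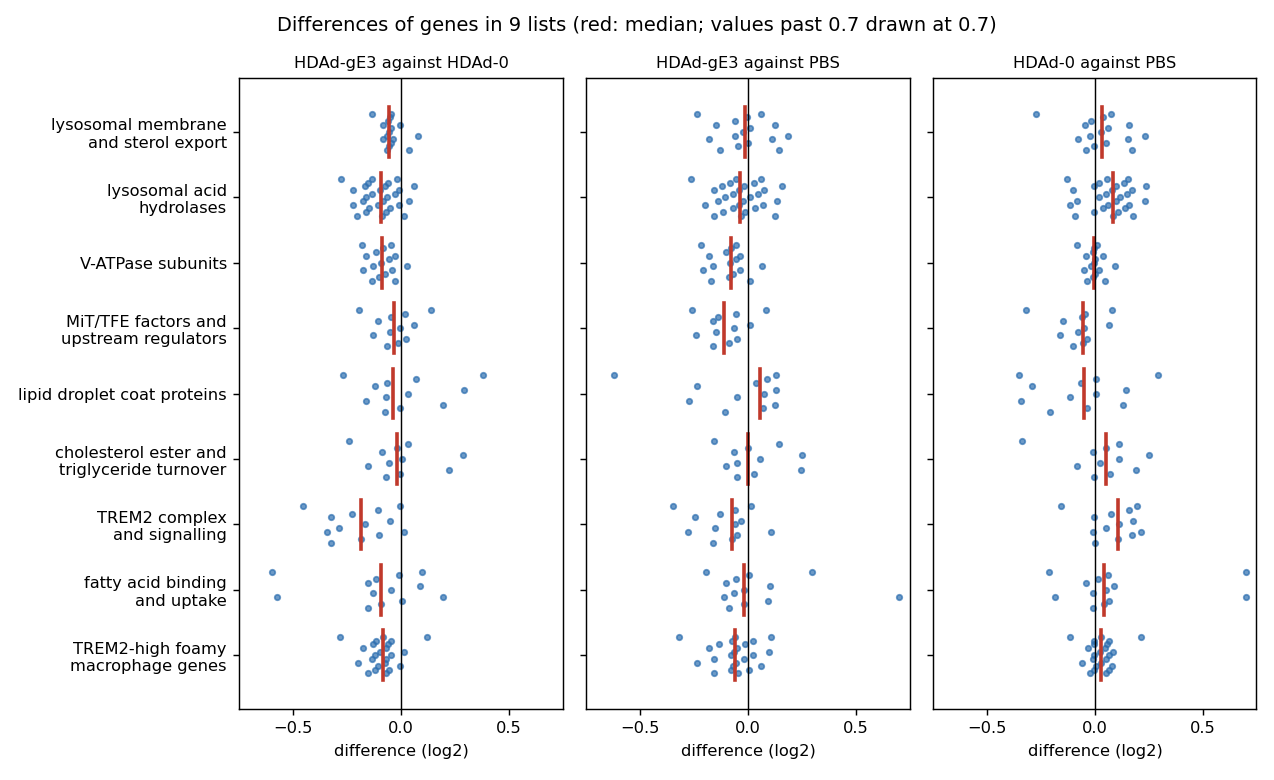
Differences in log2 signal of the genes of 9 lists in the 3 comparisons, with 1 point per gene, the median as a red bar and values past 0.7 drawn at 0.7, which applies to Fabp1 and Fabp2. The points of the TREM2 signalling list lie mostly below 0 in HDAd-gE3 against HDAd-0, with a median of -0.19. The 20 macrophage markers, not drawn, had a median of -0.17 in that comparison.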

How the data were processed

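Aortic RNA was labelled with biotin through an amplification kit (FL-Ovation), per the labels' protocols, and the probe set names are those of an Affymetrix mouse array. The values the authors deposited are log2 signals from RMA, which the submitters' processing notes name without a version. RMA equalises probe intensities between arrays, which can hide a change common to most genes; the array medians of the deposited values still differed slightly. Gene names came from the platform annotation, in which 34945 probe sets had 1 gene. With limma 3.58.1 under R 4.3.3, linear models (lmFit, eBayes) were fitted to all 45037 probe sets that were not controls, over 9 arrays with 6 residual degrees of freedom. P-values were adjusted by Benjamini-Hochberg over all probe sets, two-sided, with a threshold of 0.05 and no filter on dim probe sets. Genes in lists were represented by their brightest probe set. The text names all members and, per list and comparison, up to 2 genes with the smallest unadjusted p. Of 257 list genes, 238 were measured. The members and lists were chosen with earlier results of these data known. The procedure was tested on simulated data with added changes larger than any difference of the members. The power to detect differences of the members' size was therefore not tested. Scaling, filtering, spread, replicate and array alternatives were tried. Figures used matplotlib 3.10.9.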

Additional observations from a re-analysis of the deposited data

How the results depend on the processing

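No member probe set was called under any of 19 settings, and the lowest adjusted p of a member was 0.0699 in HDAd-gE3 against HDAd-0, 0.0562 in HDAd-gE3 against PBS and 0.214 in HDAd-0 against PBS. The 13 member differences with an unadjusted p under 0.1 kept their direction under every setting run for them, and other members are covered by counts. The counts over all probe sets, with 3 arrays a group, moved more, and the cause was not tested. In HDAd-gE3 against HDAd-0 the count was 0; it was 1 with one probe set a gene or the mean of a gene's probe sets, and 0 to 402 leaving out 1 array, the 402 without HDAd-0 replicate 4. In HDAd-gE3 against PBS it was 1; it was 58 with a filter on dim probe sets, 23 with one probe set a gene, 24 with gene means, 279 with array weights, 86 with an intensity trend, 12 with only the 2 groups compared, 70 and 0 at adjusted p thresholds of 0.1 and 0.01, and 0 to 12 leaving out 1 array. In HDAd-0 against PBS it was 4; it was 8, 12, 15 and 23 with the dim filter, one probe set a gene, gene means and the trend, 0 with only the 2 groups, 47 and 0 at 0.1 and 0.01, and 0 to 542 leaving out 1 array, the 542 without HDAd-0 replicate 4. With the 3' minus 5' signal added to the model, a choice made after seeing the data, the last 2 counts were both 0. The groups share the replicate numbers 3 and 4, and 1 of 6 same-numbered pairs had deviations correlated over 0.1. The numbers were therefore not taken as pairs. With replicate number as a block the counts were 0, 0 and 0, and 16 of 20 members were lower in HDAd-gE3 than in HDAd-0. That block leaves only replicates 3 and 4 to compare groups, since every other number occurs in 1 group. With so few arrays left, its counts of 0 say little. Centring arrays on their medians left the calls over all probe sets at 0, 1 and 3, but moved the median of all probe sets in HDAd-gE3 against HDAd-0 from -0.02 to -0.08 and the members with an unadjusted p under 0.05 from 1 to 9; the intensity trend also gave 9.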
